A study of Rattus norvegicus with 16 samples.

Results

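Fkbp5, Nfkbia, Tsc22d3, Ddit4, Errfi1, Dusp1 and Tiparp are glucocorticoid-inducible genes whose products hold back a signalling pathway, and their mRNA was followed here in the hypothalamus of 16 male Wistar rats aged 7 to 8 weeks. The members are all probe sets that the array's annotation assigns to exactly 1 of these 7 symbols. There were 10 of them among 31042 probe sets, and they cover 7 of the 14217 genes named that way. All 10 lay above the brightness limit that 18625 probe sets passed. The rats formed 4 groups of 4, with 1 Affymetrix array per rat. Control rats received neither restraint nor odour. A restrained group was held in restraint for 2 h, a linalool group inhaled (R)-(-)-linalool, a floral monoterpene alcohol, for 2 h, and a combined group received both for 2 h.

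Restraint is a standard psychological stressor that activates the hypothalamus, pituitary and adrenal cortex, so that corticosterone, the glucocorticoid of rats, rises in blood and enters the brain. There it binds the glucocorticoid receptor, a ligand-activated transcription factor that is kept ready by Hsp90 and its cochaperones and, once bound, switches on target genes within hours. Several of the early targets are brakes: they dampen the receptor itself (Fkbp5), NF-kappaB and other inflammatory transcription factors (Nfkbia, Tsc22d3), mTOR (Ddit4), the epidermal growth factor receptor (Errfi1), MAP kinases (Dusp1) and the aryl hydrocarbon receptor (Tiparp).

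The bases just upstream of 3 of these genes are shown with part of their matches to response element motifs marked. The genes differ in some of these motif matches and share others. All 7 symbols matched RefSeq promoter windows of the rat build GRCr8, in 9 windows of 300 bases (250 before to 50 after a start site), since Tsc22d3 has 3 start sites. Only the 250 bases before the start site are printed, 5′ to 3′ on the strand of the gene. Capitals mark both kappaB core matches in Nfkbia (chr6:78597073-78597322, minus strand), a match to an arm of the cAMP response element and the TATA box in Errfi1 (chr5:166606591-166606840, plus strand), and the whole cAMP response element with a separate arm in Dusp1 (chr10:17184603-17184852, plus strand).
Nfkbia: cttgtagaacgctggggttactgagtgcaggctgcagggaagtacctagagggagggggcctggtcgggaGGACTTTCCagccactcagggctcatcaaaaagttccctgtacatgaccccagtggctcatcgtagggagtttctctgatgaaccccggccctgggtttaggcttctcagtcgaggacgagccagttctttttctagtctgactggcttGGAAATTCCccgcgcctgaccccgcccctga
Errfi1: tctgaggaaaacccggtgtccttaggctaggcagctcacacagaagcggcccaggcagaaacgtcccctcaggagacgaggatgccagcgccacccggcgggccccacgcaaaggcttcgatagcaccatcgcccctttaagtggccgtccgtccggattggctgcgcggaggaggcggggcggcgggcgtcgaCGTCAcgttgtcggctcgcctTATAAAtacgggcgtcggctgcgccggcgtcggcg
Dusp1: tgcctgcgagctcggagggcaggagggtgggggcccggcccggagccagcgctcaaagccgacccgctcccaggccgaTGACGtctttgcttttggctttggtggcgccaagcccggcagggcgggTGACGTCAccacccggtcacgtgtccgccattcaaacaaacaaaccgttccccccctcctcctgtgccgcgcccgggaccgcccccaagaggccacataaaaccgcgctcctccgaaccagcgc

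The kappaB core GGNNTTTCC, searched like every motif here on both strands, lay at positions -180 and -31 from the Nfkbia start site. It was also in the Errfi1 window, at position -245 where it is not capitalised above, and in a Tsc22d3 window. It was thus in 3 of the 9 member windows, against 6.05% of all 33469 windows. The whole cAMP response element TGACGTCA was in the window of Dusp1 alone among the members, at position -124, and in 1.83% of all windows. Its arm TGACG, which the whole element contains, was in 3 of the 9 member windows (Dusp1, Errfi1 and a Tsc22d3 window) and in 21.2% of all windows. GCGTG, the core that the aryl hydrocarbon receptor recognises, was in 6 of the 9 member windows and in 29.7% of all windows. These windows belong to 5 members, among them Tiparp and Errfi1, where it lies at -145 and is not capitalised above. TATAAA was in 3 of the 9 member windows and in 14.2% of all windows. The arm AGAACA of the glucocorticoid response element was in 0 of the 9 member windows and in 20.7% of all. Both arms of that element separated by 3 bases were in 0 of the 9 and in 0.0149% of all. The heat shock element pair GAANNTTC was likewise in 0 of the 9 and in 8.59% of all. These are matches of letters within a short window, and the member windows held 50.7% to 77% G and C against a median of 51.7% over all windows.

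Signals below are the deposited values after quantile normalisation between arrays, in the arbitrary units of the array, and differences are on the log2(signal + 16) scale, which understates the change of dim probe sets. A difference was called when limma's moderated test, adjusted by Benjamini-Hochberg over 18625 probe sets, gave an adjusted p under 0.05. Because probe sets differ in how strongly they hybridise, signals are compared between rats and never between genes. Deposited array medians ranged from 67.0 to 127. They were 67.0 to 116 on control and 87.3 to 127 on restrained arrays. On linalool arrays they were 70.3 to 94.2, wholly below the 110 to 118 of combined arrays. A hybridisation spike-in, BioC, read 884 to 1014 on 3 arrays (linalool rats 2 and 4 and combined rat 2) and 201 to 271 on the other 13. Of 11 listed hypothalamic peptide genes, 9 (Avp, Oxt, Npy, Hcrt, Pmch, Trh, Crh, Sst and Gal) passed the brightness limit, Pomc did not, and Agrp was not matched to a probe set. The summed signal of 3 measured pituitary hormone genes ranged from 208 to 6896 in control rats (median 5875) and 4519 to 6996 in restrained rats (5932). It ranged from 2749 to 4306 in linalool rats (3445) and 2329 to 6011 in combined rats (2953).

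Restraint raised 6 of the 7 genes, all but Dusp1, against control, where 0.621% of all 10309 genes tested were called higher. In linalool-inhaling rats restraint again raised the same 6 of 7, against 1.02% of all genes. Averaged over both pairs of groups it raised these 6, against 2.43% of all genes. The members were chosen with earlier results of these data known, so these counts and those below are not independent of those results. The members' median change was 0.93 against control, 0.89 among linalool-inhaling rats and 0.81 on average, beside medians of -0.0038, -0.036 and -0.021 over all genes. In these bulk samples, fewer cells of a type and less RNA per cell cannot be told apart. Of the marker lists for cell types, 2 of 7 measured microglial genes fell in the averaged comparison, P2ry12 by 1.00 and Cx3cr1 by 0.49. Of 6 endothelial genes 1, Slco1a4, fell by 0.34. Of all genes 1.93% were called lower. The other microglial genes were not called: Csf1r was at 0.22, Tmem119 at 0.15, C1qa at 0.14, Itgam at -0.09 and Aif1 at -0.19. Nor were the other endothelial genes, Flt1 at 0.40, Vwf at 0.33, Pecam1 at 0.0082, Tek at -0.03 and Cldn5 at -0.21. No measured marker among the lists for hypothalamic peptides, neurons, astrocytes, oligodendrocytes, pituitary, choroid plexus, blood or thalamus was called. The summed microglial signal ranged from 2731 to 2883 in control, 2247 to 2829 in restrained, 2462 to 3172 in linalool and 2393 to 3904 in combined rats. The 3' to 5' signal ratio of actin, a sign of RNA quality, ranged from 2.08 to 4.93 on unrestrained and from 2.54 to 3.50 on restrained arrays. The part of these cell types in the members' changes was not tested. With the actin ratio as a covariate the 6 averaged calls held, and the part of RNA quality was otherwise not tested.

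**Figure D1:**
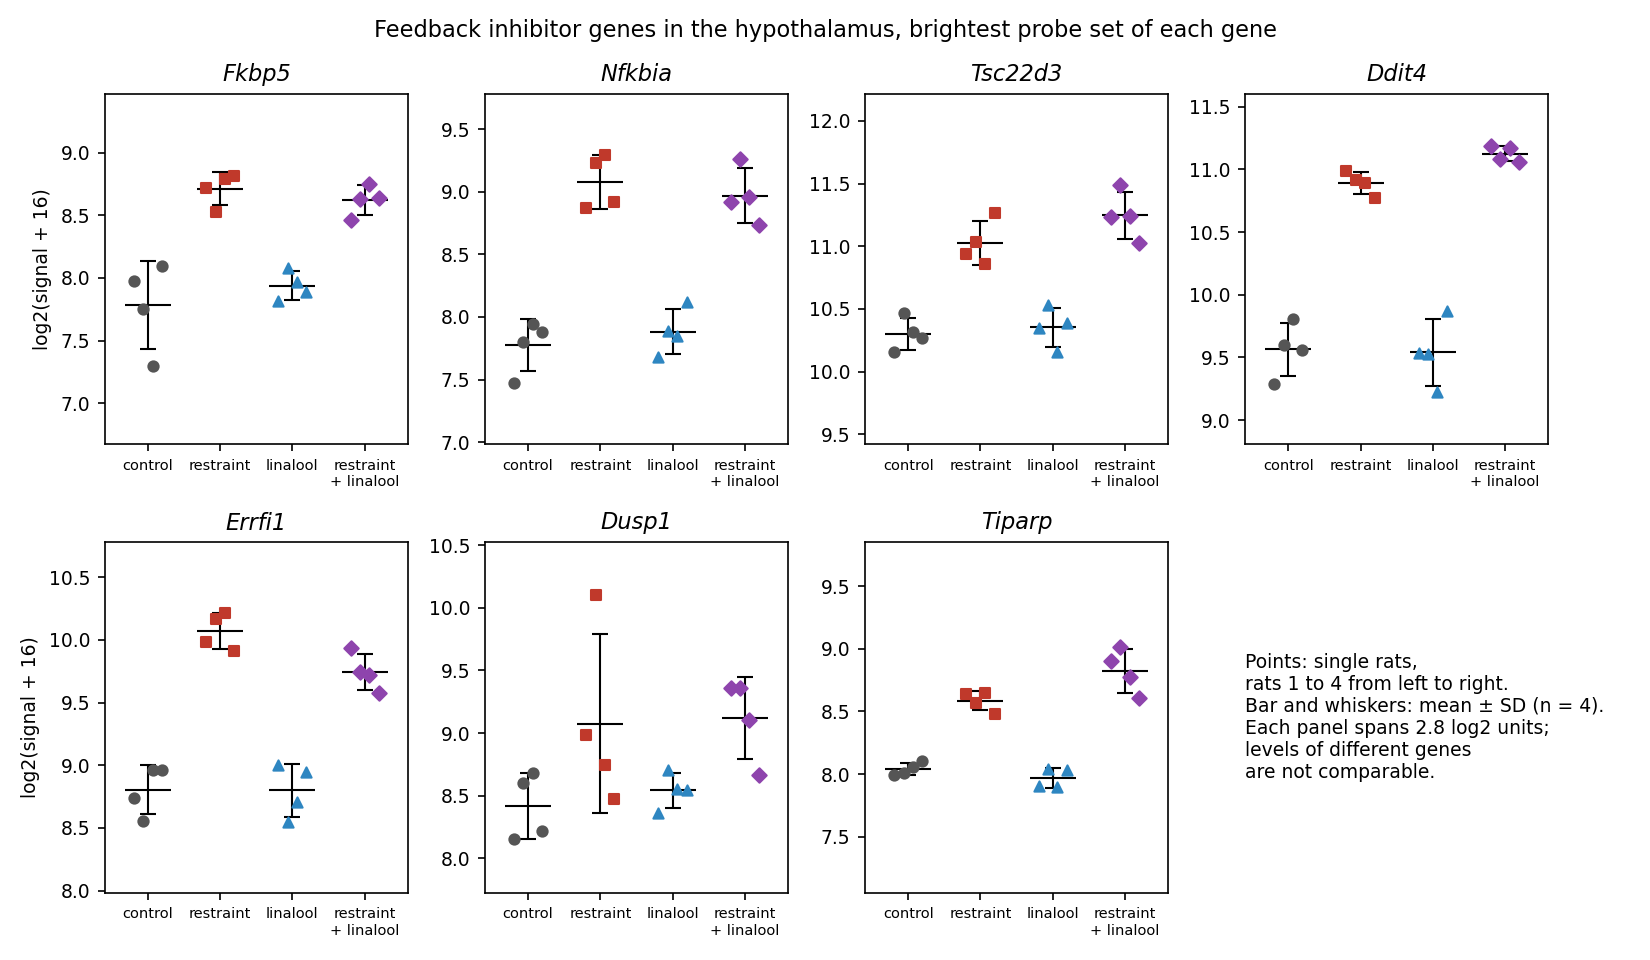
Log2(signal + 16) of the brightest probe set of each gene, with a point for each rat and the mean and SD of each group of 4. In 6 panels both restrained groups lie wholly above both unrestrained groups; in the Dusp1 panel the groups overlap and restrained rat 2 stands highest.

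Fkbp5 encodes a cochaperone that sits on Hsp90 in the receptor complex and lowers its affinity for hormone, closing a short loop within the cell. Its brighter probe set read 236, 199.6, 142 and 258 in control rats 1 to 4 and 405, 352, 427 and 434 in restrained rats 1 to 4. It read 209, 254, 235 and 221 in linalool rats and 337, 379, 415 and 381 in combined rats. Every restrained rat, with or without odour, stood above every unrestrained rat. The rise was 0.93 against control (SE 0.14, adjusted p = 0.00415) and 0.68 among linalool-inhaling rats (SE 0.14, adjusted p = 0.0187). The latter call was lost without linalool rat 1 (adjusted p = 0.0643), linalool rat 3 (0.0572), combined rat 2 (0.0597) or combined rat 3 (0.0524), and within the 13 arrays of low BioC signal, where the value was 0.72 (adjusted p = 0.119). With only control and restrained arrays in the fit the adjusted p of the former was 0.0614.

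A dimmer Fkbp5 probe set gave the same order of group means, with a wider spread in all groups but the combined rats. It read 113, 68.5, 67.4 and 129 in control rats and 172, 202, 330.2 and 338 in restrained rats. Linalool rats stood at 149, 163, 108 and 92.0, and combined rats at 184, 211, 203 and 212. All 8 restrained rats were again above all 8 unrestrained rats, but linalool rat 2 and restrained rat 1 lay close together. The change was 1.31 against control (SE 0.23, adjusted p = 0.0107) and 0.63 among linalool-inhaling rats, which was not called (95% interval 0.15 to 1.11, adjusted p = 0.182). The first of these lost its call without control rats 1 and 2 together (adjusted p = 0.0898) and with only the control and restrained arrays in the fit (adjusted p = 0.0828).

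Nfkbia encodes IkappaB-alpha, which binds NF-kappaB and keeps it in the cytoplasm. Control rats read 162, 208, 230.0 and 219.8, and restrained rats 452, 585, 612 and 467. Linalool rats read 189, 220.5, 214 and 262, and combined rats 468, 598, 482 and 409.8. The lowest restrained rat was well above the highest unrestrained rat. Nfkbia rose by 1.30 against control (SE 0.14, adjusted p = 0.000195), a 2.47-fold difference, and by 1.09 among linalool-inhaling rats (SE 0.14, adjusted p = 0.000907). Both calls held under all 28 alternative settings, with changes of 1.14 to 1.41 and 0.95 to 1.43. Its upstream bases, printed above, are those with 2 kappaB cores.

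Tsc22d3 encodes GILZ, a leucine zipper protein that binds NF-kappaB and AP-1 subunits and is used as a readout of receptor activity. Its signals were 1128, 1399.6, 1261 and 1216 in control rats and 1945, 2086, 1839 and 2445 in restrained rats. Linalool rats had 1287, 1461, 1122 and 1327, and combined rats 2393, 2853, 2403 and 2067. The groups did not overlap, with restrained rat 3 the lowest of the 8 restrained rats. The rise was 0.72 against control (SE 0.11, adjusted p = 0.00643) and 0.89 among linalool-inhaling rats (SE 0.11, adjusted p = 0.000907). On the values as deposited, without quantile normalisation, the former was 0.82 and not called (adjusted p = 0.0568).

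Ddit4 encodes REDD1, which acts through the TSC1 and TSC2 complex to turn mTOR complex 1 down. Control rats read 609.6, 759.7, 879.9 and 737, and restrained rats 2009, 1918, 1881 and 1733. Linalool rats read 726, 721, 582 and 922, and combined rats 2319, 2158, 2285 and 2124. The lowest restrained rat was at 1733 and the highest unrestrained rat at 922. The change was 1.33 against control (SE 0.12, adjusted p = 4.26e-05), a 2.51-fold difference, which lay within the error of those of Nfkbia and Errfi1. It was 1.59 among linalool-inhaling rats (SE 0.12, adjusted p = 4.32e-06), a 3.01-fold difference. Both calls held under all 28 alternatives.

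Errfi1 encodes MIG6, which binds the kinase domains of the epidermal growth factor receptor family and blocks their activation. Control rats had 412, 361, 482 and 483, and restrained rats 999, 1134, 1172 and 947. Linalool rats had 495, 359, 401 and 478, and combined rats 962, 844, 826 and 749. The groups did not overlap, and combined rat 1 lay within the range of rats restrained without odour. Errfi1 rose by 1.26 against control (SE 0.12, adjusted p = 5.93e-05) and by 0.94 among linalool-inhaling rats (SE 0.12, adjusted p = 0.000907).

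Dusp1 encodes MKP-1, a nuclear phosphatase that switches off p38, JNK and ERK, and it is also an immediate early gene of neuronal activity. Its brighter probe set read 269.7, 372, 394 and 282 in control rats and 490.0, 1081, 412 and 340.1 in restrained rats. Linalool rats read 314, 401, 361 and 359, and combined rats 641, 639.8, 533 and 391. Restrained rat 2 stood far above the others of its group, while restrained rat 4 and combined rat 4 lay within the range of unrestrained rats. The difference was 0.66 against control (95% interval 0.10 to 1.22, adjusted p = 0.300) and 0.58 among linalool-inhaling rats (0.02 to 1.14, adjusted p = 0.291), neither of which was called. With 1 rat left out at a time the former ran from 0.32, without restrained rat 2, to 0.86, without restrained rat 4. It was called under 0 of 28 alternatives.

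The dimmer Dusp1 probe set was called in a comparison where the brighter was not. It read 48.9, 73.0, 94.6 and 63.98 in control rats and 99.7, 153, 104 and 70.7 in restrained rats. Linalool rats had 53.7, 50.6, 45.6 and 70.4, and combined rats 118, 151, 96.1 and 94.0. Combined rats all stood above linalool rats, whereas restrained rat 4 lay within the control range. The change was 0.87 among linalool-inhaling rats (SE 0.20, adjusted p = 0.0346) and 0.50 against control (95% interval 0.08 to 0.92, adjusted p = 0.297). The former call was lost without linalool rat 1, 2 or 3 or combined rat 1 or 2 (adjusted p between 0.0731 and 0.123), within the arrays of low BioC signal (0.147) and with no brightness limit (0.0720), and the value was 0.58 with a pseudocount of 64. Averaged over both pairs, Dusp1 differed by 0.62 on the brighter probe set (adjusted p = 0.0724) and by 0.68 on the dimmer (adjusted p = 0.0111). The averaged call on the dimmer probe set held under all 26 alternatives, with changes of 0.46 to 0.90. The brighter was called in the averaged comparison on the values as deposited (adjusted p = 0.00528), with rat number as a block (0.0366) and without restrained rat 4 (0.0371).

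Tiparp encodes a mono-ADP-ribosyltransferase that is induced by the aryl hydrocarbon receptor and represses it in turn. Its brighter probe set was tight within groups, at 239, 242, 249.6 and 259 in control rats and 383, 364, 385 and 342 in restrained rats. Linalool rats read 224, 247, 222 and 246, and combined rats 461, 501, 421 and 373. No restrained rat overlapped with an unrestrained rat. The rise was 0.55 against control (SE 0.09, adjusted p = 0.00631) and 0.85 among linalool-inhaling rats (SE 0.09, adjusted p = 0.000106). The former was not called on the values as deposited (0.65, adjusted p = 0.295) or without control rats 1 and 2 together (0.51, adjusted p = 0.0774).

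The dimmer Tiparp probe set did not give the same pattern. It read 55.2, 106, 144 and 52.5 in control rats and 103, 71.5, 75.9 and 70.2 in restrained rats. Linalool rats had 114, 117, 83.7 and 91.1, and combined rats 156, 145, 179.9 and 114. Control rats spanned the whole range of the restrained rats, and combined rats had the highest mean. The differences were -0.05 against control (95% interval -0.53 to 0.43, adjusted p = 0.956) and 0.48 among linalool-inhaling rats (0.0042 to 0.96, adjusted p = 0.303).

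**Figure D2:**
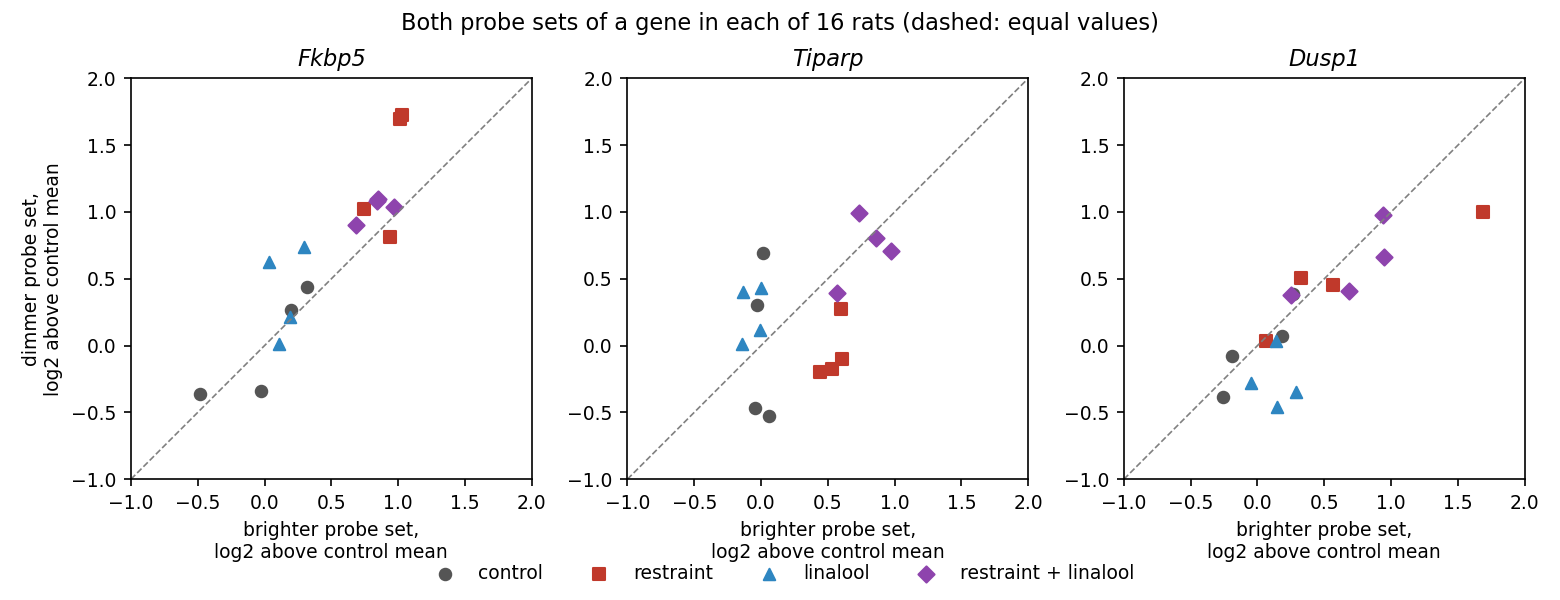
Difference from the control mean (log2) on the dimmer against the brighter probe set of Fkbp5, Tiparp and Dusp1, with a point for each of the 16 rats and a dashed line of equal values. Fkbp5 restrained rats 3 and 4 lie above the line at 1.69 and 1.72 on the dimmer probe set, and the 4 Tiparp restrained rats lie below it.

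Of the 10 probe sets, 7 were called higher in restrained against control rats and 7 in combined against linalool rats, where 0.628% and 1.12% of all probe sets were. In the averaged comparison 8 were called higher, against 2.65%. All 4 restrained rats stood above all 4 control rats for 6 of 7 genes, against 3.42% of all genes, and combined above linalool rats for 6 of 7, against 4.9%. All 8 restrained rats stood above all 8 unrestrained rats for the same 6 genes, against 0.718% of all genes. On average over both pairs the changes ran from 1.46 for Ddit4 (SE 0.09), 1.20 for Nfkbia (SE 0.10) and 1.10 for Errfi1 (SE 0.09) through 0.81 for Fkbp5 (SE 0.10) and 0.81 for Tsc22d3 (SE 0.08) to 0.70 for Tiparp (SE 0.06). Their adjusted p lay between 8.75e-08 for Ddit4 and 0.000174 for Fkbp5. These 6 averaged calls, made on the brightest probe sets, held under all 27 alternatives. The dimmer Tiparp probe set differed on average by only 0.22 (SE 0.16, adjusted p = 0.509) and was called under 0 of 26 alternatives. The dimmer Fkbp5 probe set rose on average by 0.97 (SE 0.16, adjusted p = 0.00228) and was called under all 26.

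**Figure D3:**
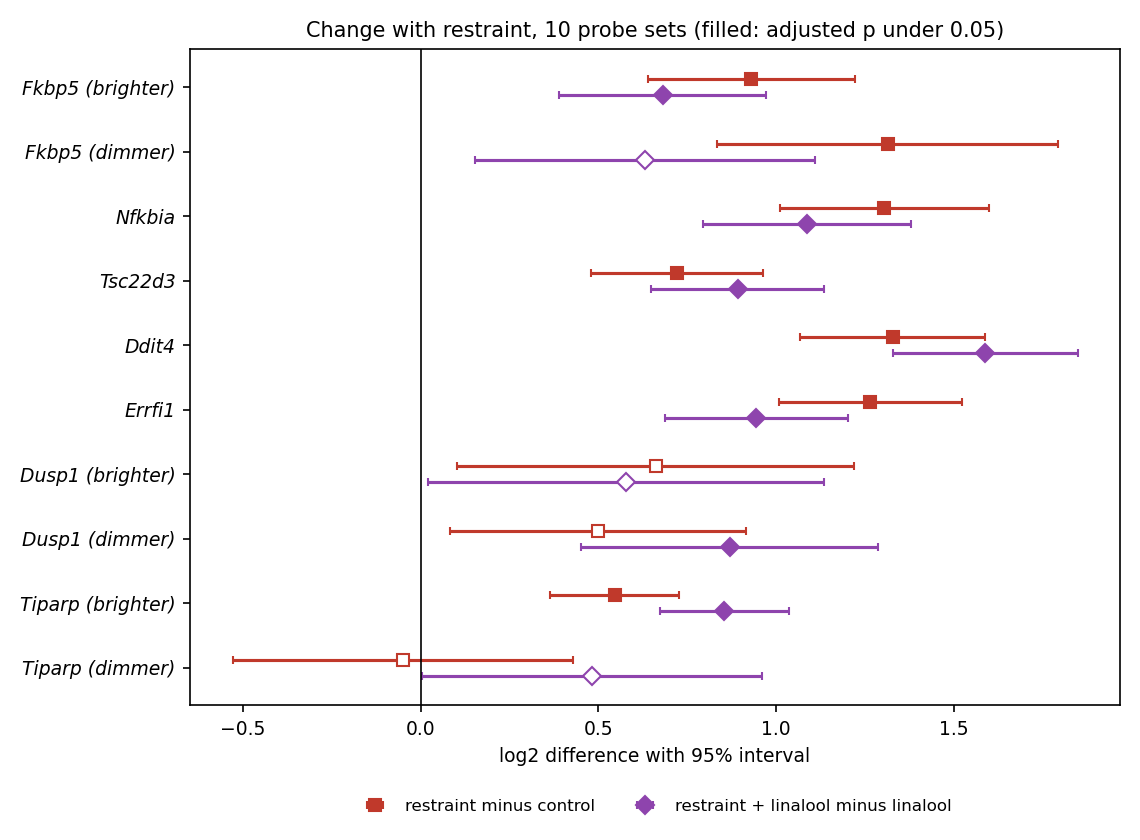
Change with restraint (log2, with 95% intervals) on each of the 10 probe sets, without odour and among linalool-inhaling rats, filled where the adjusted p was under 0.05. Both intervals of Ddit4, Nfkbia and Errfi1 lie at or above 0.69, while the dimmer Tiparp probe set is centred on -0.05 without odour.

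The rats did not keep the same order for every member, but in some groups 1 rat was often the lowest. Combined rat 4 was the lowest of its group for 6 of the 7 genes and the highest for 0. Control rat 1 was the lowest control for 5 of 7. Its array had the highest actin ratio, 4.93, and a link between these was not tested. Restrained rat 4 was the lowest of its group for 4 of 7 and the highest for 2. Restrained rat 3 was the highest of its group for 3 of 7 and the lowest for 1. That rat stood apart in the heat shock genes. Hspa1a, the inducible Hsp70, read 368 in it against 1753 to 3796 in the other restrained rats, and Hspb1, a small heat shock protein gene, 261 against 519.6 to 1359.9. Its members' median difference from the control mean was 1.01, beside 0.94, 1.35 and 1.03 in restrained rats 1, 2 and 4. Combined rat 4, lowest for 6 of 7 members, was also the lowest of its group in both heat shock genes. It read 2118 for Hspa1a against 3430 to 7281 in the other combined rats, and 734 for Hspb1 against 1101 to 3435. Restrained rat 2, the highest restrained rat in Dusp1, had the highest Hspa1a and Hspb1 of its group, 3796 and 1359.9. How members and heat shock genes vary together across rats was not tested.

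**Figure D4:**
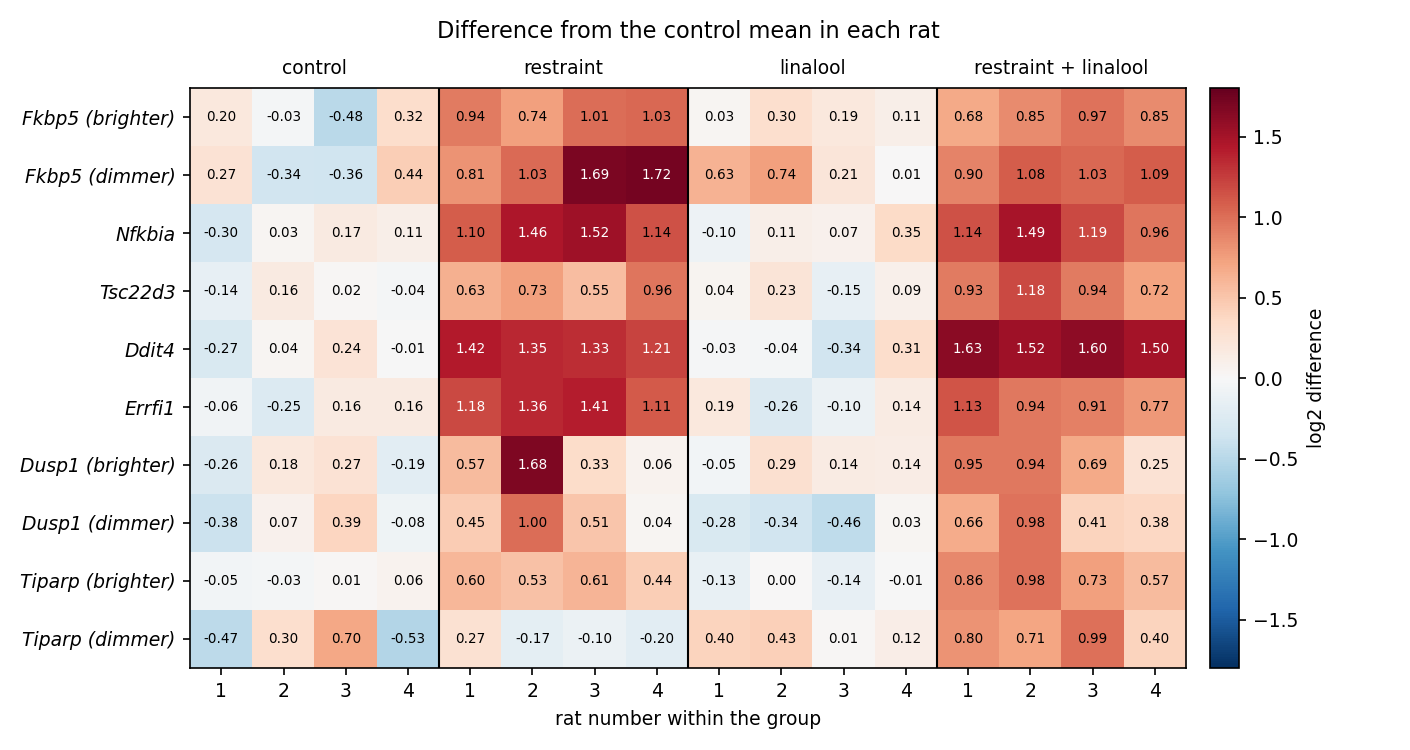
Difference of each rat from the control mean (log2, printed in each cell) on the 10 probe sets, with rats in columns by group. Restrained and combined columns are above 0 in nearly all cells, with Ddit4 at 1.21 to 1.63 in all 8 restrained rats and the dimmer Tiparp probe set below 0 in 3 rats restrained without odour.

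Among pairs of members, the closest pattern over the 16 rats was that of Tsc22d3 and Tiparp, whose differences from the control mean differed by a root mean square of 0.19 (log2). Nfkbia and Errfi1 followed at 0.23, and the farthest pair was Ddit4 and Dusp1 at 0.65. By the same measure over the 16 arrays, the nearest other named gene was Plekhf1, a phosphoinositide-binding protein gene, for Errfi1 (0.20), Nfkbia (0.24) and Ddit4 (0.31). It was Rbm12b, an RNA-binding protein gene, for Tsc22d3 (0.11), and Naa16, an auxiliary subunit gene of an N-terminal acetyltransferase, for Tiparp (0.12). For Fkbp5 it was Gadd45g, a growth arrest gene (0.26), and for Dusp1 it was Cryab, a small heat shock protein gene (0.31).

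No member passed the test for linalool. Against control, 0 of the 7 genes were called by limma, as were 0% of all 10309 genes, and 0 of the 10 probe sets had an unadjusted p under 0.05, beside 9.83% of all 18625 probe sets. On the brightest probe sets the differences ran from -0.07 for Tiparp (95% interval -0.25 to 0.11) to 0.16 for Fkbp5 (-0.13 to 0.45), with a members' median of 0.05 beside 0.0031 over all genes. Control and linalool rats overlapped for all 7 genes, where linalool rats stood wholly above control for 2.79% of all genes and wholly below for 2.61%. The dimmer probe sets lay farther from 0, at 0.40 for Fkbp5 (-0.08 to 0.88), 0.24 for Tiparp (-0.24 to 0.72) and -0.26 for Dusp1 (-0.68 to 0.15). The widest interval was that of the brighter Dusp1 probe set, from -0.43 to 0.69.

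Among restrained rats, linalool again gave 0 of 7 called genes by limma, where 0.398% of all genes were called, and 3 of the 10 probe sets (Errfi1 and both of Tiparp) had an unadjusted p under 0.05, beside 12.6% of 18625 probe sets. Errfi1 differed by -0.33 in combined against restrained rats (95% interval -0.58 to -0.07, adjusted p = 0.264), with combined rats at 749 to 962 and restrained rats at 947 to 1172. Tiparp differed by 0.24 (0.06 to 0.42, adjusted p = 0.240) and Ddit4 by 0.24 (-0.02 to 0.50, adjusted p = 0.451). All 4 combined rats were above all 4 restrained rats for Ddit4 alone among the 7 brightest probe sets, against 4.01% of all genes. The dimmer Tiparp probe set separated these groups too, at 114 to 179.9 against 70.2 to 103, where 5.04% of all probe sets did. Its difference of 0.77 (SE 0.23, adjusted p = 0.142) was called with only the arrays of these groups in the fit (adjusted p = 0.0485).

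The restraint response itself was compared between odour conditions as an interaction, the change among linalool-inhaling rats minus that against control. By limma 0 of 7 genes were called, as were 0% of all genes, and 2 of the 10 probe sets, the brighter of Tiparp and the dimmer of Fkbp5, had an unadjusted p under 0.05, beside 7.99% of 18625 probe sets. The dimmer Fkbp5 probe set had the largest interaction of the 10, -0.68 (95% interval -1.36 to -0.0055, adjusted p = 0.620), while its brighter probe set had -0.25 (-0.66 to 0.16). On the brightest probe sets the interaction was 0.31 for Tiparp (95% interval 0.05 to 0.56, adjusted p = 0.576) and 0.26 for Ddit4 (-0.11 to 0.63). It was -0.32 for Errfi1 (-0.68 to 0.04) and -0.22 for Nfkbia (-0.63 to 0.20). Tsc22d3 had 0.17 (-0.17 to 0.51) and Dusp1 -0.08 (-0.87 to 0.71). The dimmer probe sets of Tiparp and Dusp1 had 0.53 (-0.14 to 1.21) and 0.37 (-0.22 to 0.96). These intervals are wide, and the data do not show that the responses were alike.

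**Figure D5:**
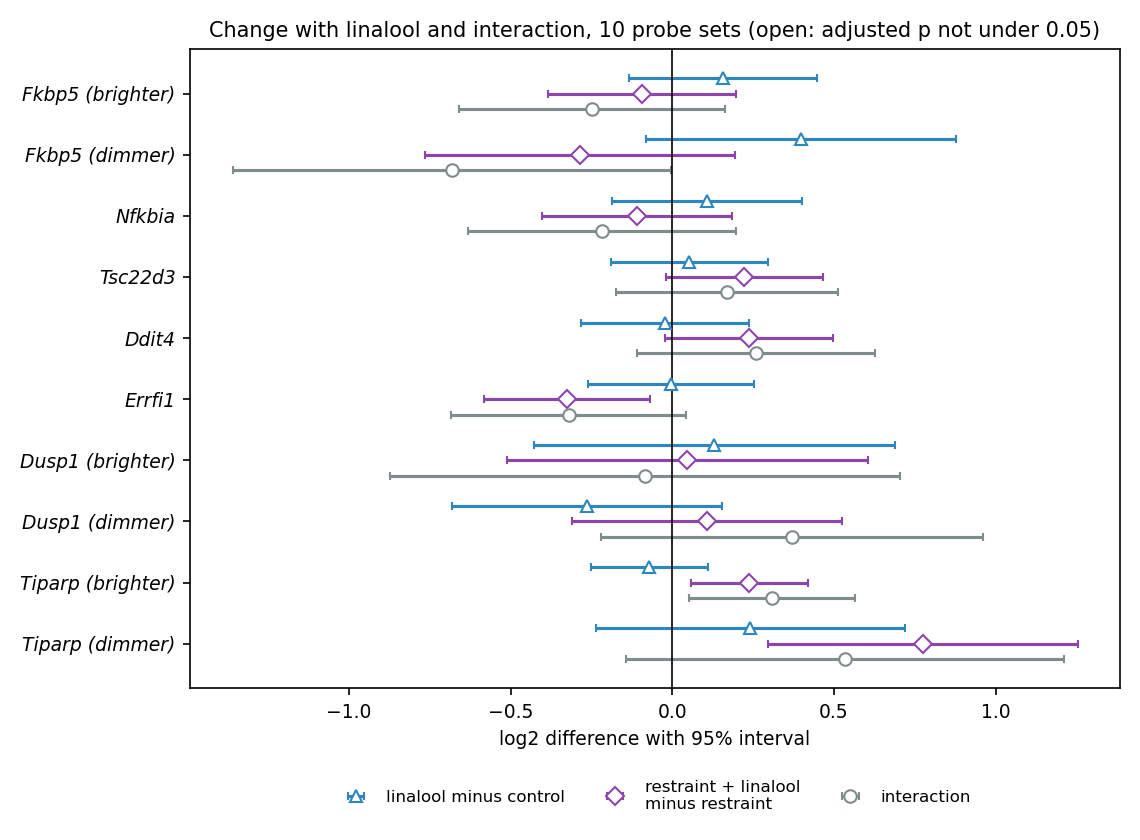
Change with linalool in unrestrained and in restrained rats and the interaction of restraint with linalool (log2, with 95% intervals) on each of the 10 probe sets, all open because no adjusted p was under 0.05. The brightest probe sets lie between -0.07 and 0.16 for linalool minus control, and the dimmer Tiparp probe set is at 0.77 in combined minus restrained rats.

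Other genes of the same circuits were read from lists written with earlier results of these data known, so their counts are not independent of those results. In the averaged comparison 16 of 20 measured glucocorticoid-induced genes outside the members rose and 0 fell, where 2.43% of all genes rose, with a median of 0.65 beside -0.021 over all genes. They include Sgk1, a kinase that acts on ion channels (2.17, SE 0.08, adjusted p = 3.81e-10), and Pdk4, which limits pyruvate oxidation (1.97, SE 0.12, adjusted p = 1.28e-07). The transcriptional repressor gene Bcl6 rose by 1.10 (SE 0.10, adjusted p = 1.71e-05) and the deubiquitinase gene Usp2 by 0.79 (SE 0.08, adjusted p = 2.22e-05). Of 9 measured genes for the receptor and its handling 2 rose, against the same 2.43% of all genes, the cochaperone gene Stip1 by 0.50 (SE 0.08, adjusted p = 0.00182) and the Hsp90 gene Hsp90ab1 by 0.25 (SE 0.05, adjusted p = 0.0155). The receptor gene Nr3c1 differed by -0.05 (SE 0.07).

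The pathways that the members restrain were nearly all without calls in the averaged comparison, in which 4.36% of all genes were called. Of 13 measured ErbB and ERK pathway genes 0 rose and 1 fell, Map2k2, a kinase that activates ERK, by 0.24 (SE 0.05, adjusted p = 0.0156). Of 9 MAP kinase phosphatase, p38 and JNK genes 0 were called, the smallest p being that of the JNK gene Mapk9 (-0.23, adjusted p = 0.243). Of 18 mTOR pathway genes 0 were called, with the translation repressor gene Eif4ebp2 at 0.21 (adjusted p = 0.0696). Of 10 NF-kappaB pathway genes 0 were called, with Nfkbib, a close relative of Nfkbia, at -0.19 (adjusted p = 0.0898). Of 3 aryl hydrocarbon receptor genes 0 were called, with Nqo1, a quinone reductase gene, at 0.11 (adjusted p = 0.398). Of 16 measured paralogues of the members 0 were called, Nfkbib again having the smallest p. The array reads mRNA, so the activity of these pathways was not measured.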

How the data were processed

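Total RNA from the hypothalamus of each rat was labelled and hybridised to 1 Affymetrix array. The authors deposited intensities as MAS5 signal, 1 value for each probe set, per the submitters' processing notes. Neither its version nor its scaling target is stated in the sources used here. Values of 31099 probe sets were quantile-normalised on the log2 scale, 57 control probe sets were left out, and log2(signal + 16) was taken. Probe sets with a mean at or above the 40th percentile were kept, 18625 of 31042. limma 3.58.1 in R 4.3.3 fitted the 4 group means over all 16 arrays, with 6 contrasts, two-sided moderated tests and Benjamini-Hochberg adjustment for each contrast, and the fit was tested on simulated data. Symbols come from the platform annotation: 20826 probe sets have 1 symbol, 436 have several and 9780 have none. A gene stands by its brightest kept probe set. The number of arrays limits the precision.

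All member probe sets are named. Of each related list up to 4 called genes with the smallest p in the averaged comparison are named, or the gene with the smallest p; for each member the named gene with the smallest root mean square difference; and Hspa1a and Hspb1, where a rat that stands out in them bears on a member. The microglial, endothelial and hypothalamic peptide genes come from the cell type marker lists, and Nr3c1 was named after its value was seen. The members and lists were chosen with earlier results of these data known. The alternatives were other normalisations, pseudocounts and brightness limits, blocks and covariates, and rats left out.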

Additional observations from a re-analysis of the deposited data

How the results depend on the processing

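The count of member genes called stayed within 4 to 6 against control, 5 to 7 among linalool-inhaling rats and 6 to 7 on average, and at 0 for linalool and the interaction, under 28 alternatives (27 for the averaged comparison and the interaction). Over 60 member changes, each recomputed under these alternatives, 1579 recomputed values kept direction and call, 18 lost a call, 7 gained one and 38 changed sign, all 38 of them uncalled under both settings. The count of other glucocorticoid-induced genes that rose, 16, was 13 to 17 under these alternatives, which were added for it after seeing the data. Among linalool-inhaling rats the values as deposited gave calls for the brighter Dusp1 probe set (0.92, adjusted p = 0.0345) and the dimmer ones of Fkbp5 (0.97, 0.0181) and Tiparp (0.82, 0.0278). The other calls lost or gained stand beside their results. The cause of each was not tested.

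On the values as deposited the median of all probe sets moved to 0.099 against control, 0.32 among linalool-inhaling rats and 0.21 on average, against 0.0027, -0.020 and -0.011, and the share of calls that were higher was 85.2%, 99.4% and 98.2% against 69.6%, 66.6% and 62.9%. Calls over all probe sets numbered 168 against control (44 to 259 under the alternatives), 314 among linalool-inhaling rats (73 to 1103), 784 on average (458 to 1035) and 121 for linalool under restraint (0 to 386).

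The titles do not say whether rat numbers pair the rats. Deviations from group means correlated at -0.16 to 0.23 between same-numbered rats of different groups, 4 of 24 over 0.1. Between different-numbered rats of different groups they correlated at -0.25 to 0.21, 11 of 72 over 0.1. With so few rats per group these values do not settle whether the numbers pair them. With the number as a replicate block, 6, 6 and 7 member genes were called in the 3 restraint comparisons, Dusp1 being the addition (0.62, adjusted p = 0.0366). Of all probe sets 0.65%, 1.68% and 3.86% were called in either direction under this setting.

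On the values as deposited the median of all probe sets was -0.17 for linalool minus control and 0.22 for the interaction. After quantile normalisation these medians were 0.0048 and -0.021. Signs changed as follows. Linalool minus control was -0.028 (Fkbp5), -0.069 (Nfkbia), -0.12 (Tsc22d3) and -0.055 (Dusp1) on the values as deposited; -0.044 (Nfkbia), -0.077 (Tsc22d3) and 0.024 (Errfi1) with BioC level as a block; -0.012, -0.053 and 0.046 for these 3 within the 13 low-BioC arrays; -0.029 (Nfkbia) without control rats 1 and 2; and 0.0010 (Errfi1) with the actin ratio as a covariate. Combined minus restrained was -0.011 (Dusp1) with the BioC block, and -0.032 and -0.016 on its 2 probe sets within the low-BioC arrays. On the values as deposited the interaction was 0.16 (Dusp1) and 0.016 (Nfkbia), and the dimmer Tiparp probe set was 0.063 against control, or 0.023 with the actin covariate.
With 1 rat left out at a time, linalool minus control ran from -0.14 to 0.082 for Ddit4, -0.087 to 0.079 for Errfi1, -0.0040 to 0.26 for Fkbp5 and -0.0059 to 0.12 for Tsc22d3. The Dusp1 interaction ran from -0.28 to 0.26, combined minus restrained from -0.15 to 0.39 and -0.046 to 0.28 on its 2 probe sets, and the dimmer Tiparp probe set against control from -0.23 to 0.18.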
